A study of Mus musculus with 59 samples.

Results

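The genes that separate the direct from the indirect pathway of the striatum were examined in 59 mouse cells sequenced one by one and labelled as chemical-induced neurons. The 7 genes were chosen by symbol from the 20689 genes of the deposited table, 3 for the direct pathway (Drd1, Tac1 and Pdyn) and 4 for the indirect pathway (Drd2, Adora2a, Penk and Gpr6), and all 7 were found. The study turned astrocytes into neurons in the living brain with chemicals, and a patch pipette took up the soma of each cell there for RNA sequencing. All cells form a single group, labelled as 12 weeks of age. The sources used here give no brain region, animal, strain, genotype or chemical. The cells are therefore 1 sample with no control group, so the values describe these cells and no test between groups was possible.

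Projection neurons of the striatum send their axons along a direct or an indirect route to the output nuclei of the basal ganglia. Neurons of the direct pathway carry the dopamine receptor gene Drd1, whose product raises cyclic AMP, and make the peptides substance P (from Tac1) and dynorphin (from Pdyn). Neurons of the indirect pathway carry Drd2, whose product lowers cyclic AMP, together with the adenosine receptor gene Adora2a, the orphan receptor gene Gpr6 and the enkephalin precursor gene Penk. Both kinds use GABA and share signalling genes such as Ppp1r1b (DARPP-32, a phosphatase inhibitor). Tac1, Pdyn and Penk are also used by neurons outside these pathways.

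Levels are in FPKM, which divides a gene's fragments by its exon length and by the depth of the cell, so they can be compared between genes. A gene was called detected at an FPKM of 1 or more, and each interval is a 95% Clopper-Pearson interval (exact), covering the counting of cells and no other error. The cells held 475 to 10310 detected genes (median 3984) and an estimated 29043 to 2950402 fragments (median 912996). At least 50% of 14 neuronal genes was detected in 48 cells, of 10 oligodendrocyte genes in 46, of 12 microglia genes in 32 and of 10 astrocyte genes in 24. In 39 cells the neuronal list reached this level together with the oligodendrocyte or the microglia list, so most cells do not match a neuron alone by their markers.

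Of the cells with any of the 7 genes, most had genes of both pathways when Penk was counted. At least 1 direct gene and at least 1 indirect gene were detected in 25 of 59 cells (42.4%, interval 29.6 to 55.9%). Indirect genes without a direct gene were found in 13 cells (22.0%, interval 12.3 to 34.7%), and direct genes without an indirect gene in 3 cells (5.08%, interval 1.06 to 14.1%). In the other 18 cells (30.5%, interval 19.2 to 43.9%) none of the 7 genes reached an FPKM of 1. In number, 13 cells had 1 of the genes, 9 had 2, 8 had 3, 4 had 4, 5 had 5 and 2 had 6, and 0 had all 7.

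**Figure D1:**
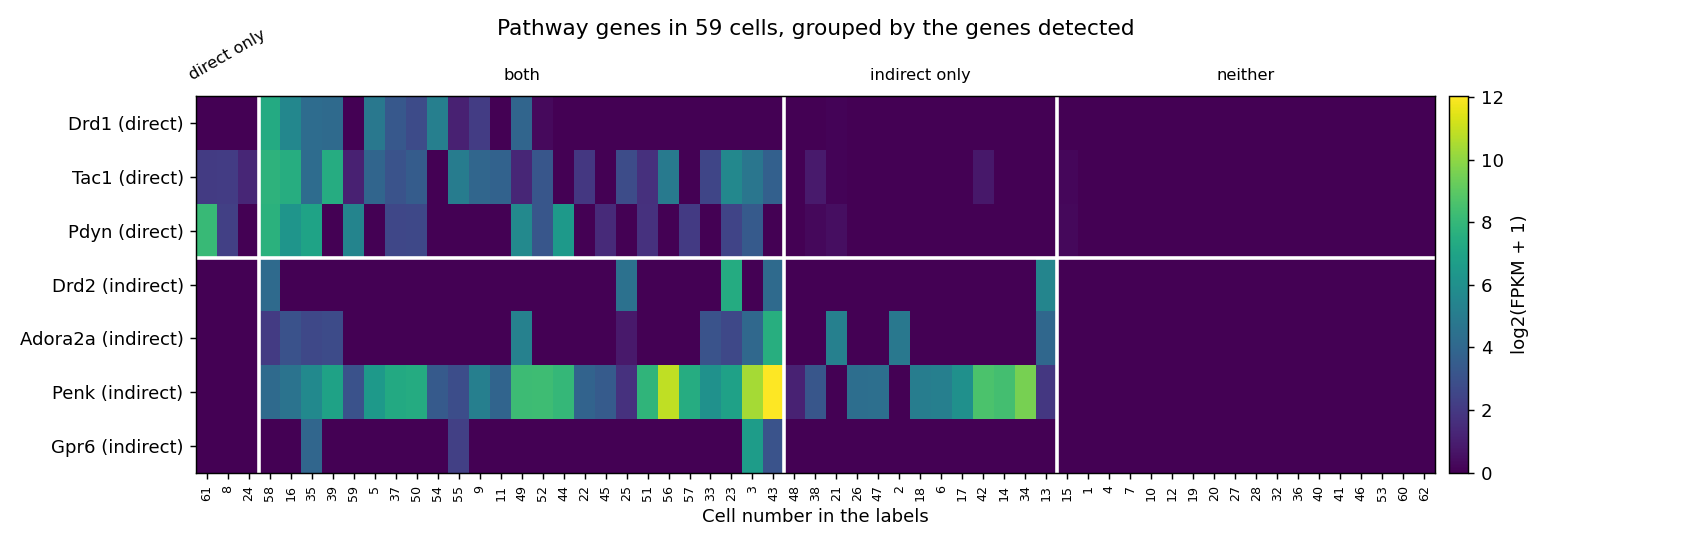
Level of the 7 genes as log2(FPKM + 1) (colour) in each of 59 cells (columns, numbered as in the labels), grouped by which pathway's genes were detected and sorted within a group by direct minus indirect level. The block of 25 cells with both pathways is the largest, and the Penk row is filled in all 25 of them.

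Drd1 (chromosome 13, 54051183 to 54055705, GRCm38) reached this level in 11 cells (18.6%, interval 9.69 to 30.9%). Its level in those cells had a lowest value of 1.14, a median of 16.6 and a highest value of 162 FPKM. The highest, in cell 58, was followed by 46.9 FPKM in cell 16, and cell 58 held 47.8% of all Drd1 FPKM in the table. About 6 to 1222 recovered fragments stood behind these values.

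Tac1 (chromosome 6, 7554879 to 7565834) was the most widely detected direct gene, in 24 cells (40.7%, interval 28.1 to 54.3%), with 1.15, 10.9 and 217 FPKM as the lowest, median and highest value. The highest value was again in cell 58, with 177 FPKM in cell 16 and 172 FPKM in cell 39 close to it. Pdyn (chromosome 2, 129686565 to 129699844) came next, in 16 cells (27.1%, interval 16.4 to 40.3%), with a lowest, median and highest value of 1.67, 8.91 and 274 FPKM. Its highest value was in cell 61, where Drd1 was listed at 0 and Tac1 stood at 3.28 FPKM. Dynorphin and substance P genes thus peaked in different cells, although cell 58 was high for both (201 FPKM of Pdyn).

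Drd2 (chromosome 9, 49340627 to 49408177) reached it in only 5 of the 59 cells (8.47%, interval 2.81 to 18.7%). The values were 168 FPKM in cell 23, 42.7 in cell 13, 21.4 in cell 25, 17.1 in cell 43 and 16.8 in cell 58, and in the other 54 cells the gene was listed at 0. These rested on about 10 to 528 fragments. A level between 0 and 16.8 FPKM was found in no cell, but the lowest level that can be seen depends on depth. About 10 fragments gave 17.1 FPKM in cell 43, and about 89 gave 16.8 FPKM in cell 58. In cells of low depth a low level could therefore be missed.

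Adora2a (chromosome 10, 75316877 to 75334784) was more common, in 12 cells (20.3%, interval 11.0 to 32.8%), with a lowest, median and highest value of 3.23, 11.4 and 186 FPKM. Cell 43 was highest and cell 49 came next at 38.0 FPKM. Gpr6 (chromosome 10, 41069977 to 41072285), a receptor gene largely restricted to indirect pathway neurons in the striatum, was detected in 4 cells. Its values were 99.5 FPKM in cell 3, 14.8 in cell 35, 7.46 in cell 43 and 3.78 in cell 55, the last 2 on about 3 and 10 fragments.

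Penk (chromosome 4, 4133531 to 4138819) had the highest count of cells and the highest median level of the 7 genes. It was found in 36 cells (61.0%, interval 47.4 to 73.5%) with a lowest, median and highest value of 1.19, 57.8 and 4145 FPKM. Of all 20689 genes, 7.05% were detected in at least as many cells, against 18.0% for Tac1, 30.4% for Pdyn, 38.9% for Adora2a, 41.2% for Drd1, 57.7% for Drd2 and 62.1% for Gpr6. The 3 cells with the most Penk, 43, 56 and 3, held 65.5% of all its FPKM.

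**Figure D2:**
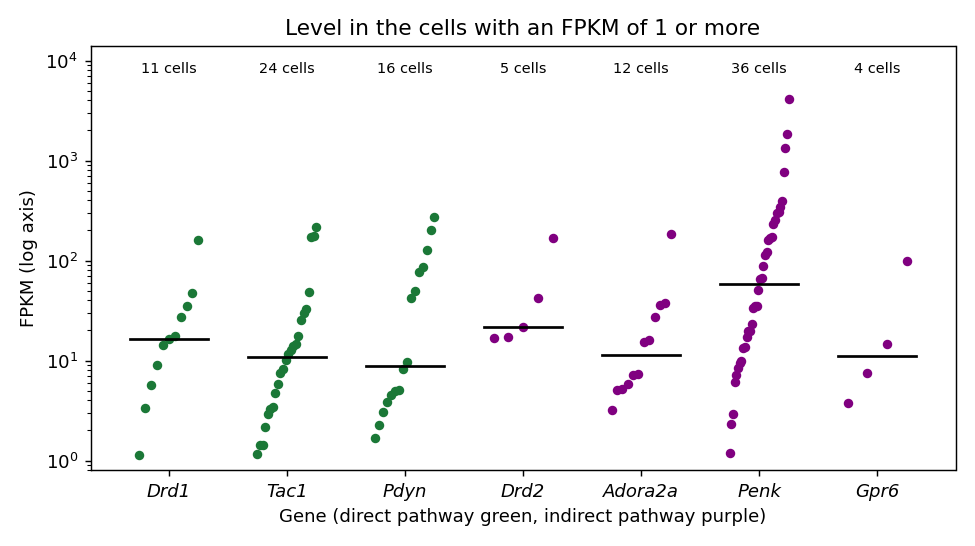
FPKM (log axis) of each gene in the cells where it reached 1, 1 point per cell sorted by level, with the median as a line. Penk spans 1.19 to 4145 FPKM over 36 cells, while Drd2 and Gpr6 have 5 and 4 points.

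In order of detection the genes ran Penk, Tac1, Pdyn, Adora2a, Drd1, Drd2 and Gpr6. The intervals of neighbours in this order overlapped at every step, and those of Penk and Pdyn did not. By median level in the cells with the gene, Penk was followed by Drd2 at 21.4, Drd1 at 16.6, Adora2a at 11.4, Gpr6 at 11.1, Tac1 at 10.9 and Pdyn at 8.91 FPKM. The ranges of all 7 genes overlapped. Drd2 was thus rare but, where present, at a level like that of Drd1.

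The dopamine receptor genes rarely met, whereas Drd1 and Adora2a often did. Drd1 and Drd2 were detected together in 1 cell, which is 9.09% of the Drd1 cells and 20.0% of the Drd2 cells. The product of their shares over 59 cells gives 0.932 cells, so the single cell does not stand below that figure. Drd1 and Adora2a were found together in 5 cells (16, 35, 39, 49 and 58), 45.5% of the Drd1 cells and 41.7% of the Adora2a cells, where the product gives 2.24. These products take no account of cells differing in depth. Drd2 and Adora2a, both of the indirect pathway, shared 4 cells, which is 80.0% of the Drd2 cells and 33.3% of the Adora2a cells. In the remaining Drd2 cell, cell 25, Adora2a was at 0.748 FPKM on about 2 fragments.

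All 11 Drd1 cells held Penk, and 10 of them held Tac1. Pdyn was detected in 6 Drd1 cells, and those 6 (16, 35, 37, 49, 50 and 58) had the full direct set of Drd1, Tac1 and Pdyn. All 6 also had Penk, and 4 of them had Adora2a as well. Every one of the 5 Drd2 cells held Penk, 4 held Tac1 and 2 held Pdyn. Drd2, Adora2a and Penk were detected together in 4 cells (13, 23, 43 and 58), and only cell 43 had all 4 indirect genes.

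Pairs within a pathway overlapped somewhat more than pairs across pathways, with wide overlap between the sets of pairs. Taking cells with both genes as a share of cells with either, the median was 26.3% over the 9 pairs within a pathway (11.1 to 48.1%) and 22.0% over the 12 pairs across (6.67 to 53.8%). The highest share of all belonged to a pair across pathways, Tac1 with Penk, found together in 21 cells. That is 87.5% of the Tac1 cells and 58.3% of the Penk cells. Among direct pairs the share was 48.1% for Tac1 with Pdyn, 40.0% for Drd1 with Tac1 and 28.6% for Drd1 with Pdyn. The 6 indirect pairs had a lower median of 18.5%. This share is capped where 1 gene of a pair is much rarer than the other. Every Drd2 cell and every Gpr6 cell held Penk, so Drd2 with Penk (13.9%) and Penk with Gpr6 (11.1%) were at their highest possible share. Across pathways, Drd1 with Penk (30.6%) and Tac1 with Gpr6 (16.7%) were at theirs. The medians therefore also depend on how often each gene was detected. At an FPKM of 5 the medians within and across pathways were 23.1% and 23.5%, in the opposite order.

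**Figure D3:**
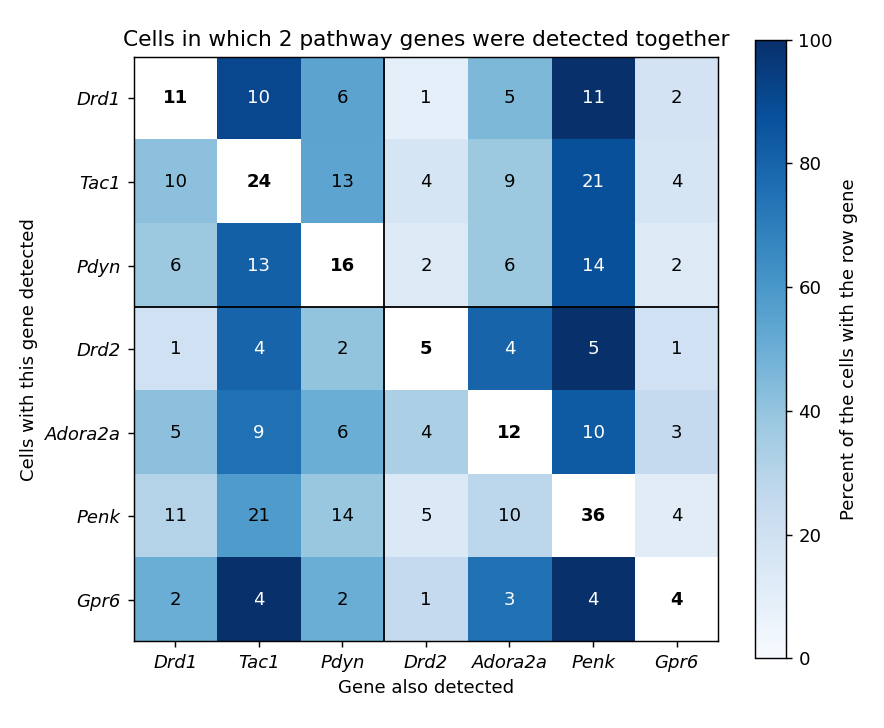
Number of cells in which the row and the column gene were both detected (diagonal, cells with the gene), coloured by the share of the row gene's cells; black lines divide direct from indirect genes. The Penk column is dark in the rows of all other genes, and Drd1 with Drd2 holds 1 cell.

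The classes depended on Penk. Without it, 11 cells (18.6%) had genes of both pathways, 17 (28.8%) direct genes alone, 3 (5.08%) indirect genes alone and 28 (47.5%) neither. Among the 28 cells with a direct gene, 11 (39.3%, interval 21.5 to 59.4%) then had Drd2, Adora2a or Gpr6. Among the 31 cells without one, 3 did (9.68%, interval 2.04 to 25.8%). With Penk these shares were 25 of 28 (89.3%, interval 71.8 to 97.7%) and 13 of 31 (41.9%, interval 24.5 to 60.9%). Of the 13 cells with indirect genes alone, 10 had Penk as the only one of the 7 genes at an FPKM of 1 or more. That threshold asks for more fragments in deeper cells. Among the 10, Tac1 was at 0.805 FPKM on 5 fragments in cell 38 and at 0.712 FPKM on 1 in cell 42. In cell 59, Tac1 was called detected at 1.15 FPKM on 1 fragment. At any FPKM above 0, 28 cells had genes of both pathways and 10 had indirect genes alone.

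The number of genes detected in a cell went with these classes. The median was 4303 genes in cells with both pathways (1494 to 8989), 6972 in the 3 cells with direct genes alone, 3984 with indirect genes alone (1714 to 9148) and 2266.5 in cells with neither (475 to 7075). Among the 30 cells at or above the median number of genes, 14 of 17 with a direct gene also had an indirect one, against 7 of 13 without. Among the 29 cells below it the counts were 11 of 11 and 6 of 18. The difference therefore pointed the same way in both parts, with intervals that overlapped in the upper part (56.6 to 96.2% and 25.1 to 80.8%). Tac1 was detected in 15 of 30 upper and 9 of 29 lower cells, Pdyn in 12 and 4 and Adora2a in 8 and 4. Penk was found in 20 and 16, Drd1 in 6 and 5, Drd2 in 4 and 1 and Gpr6 in 2 and 2.

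**Figure D4:**
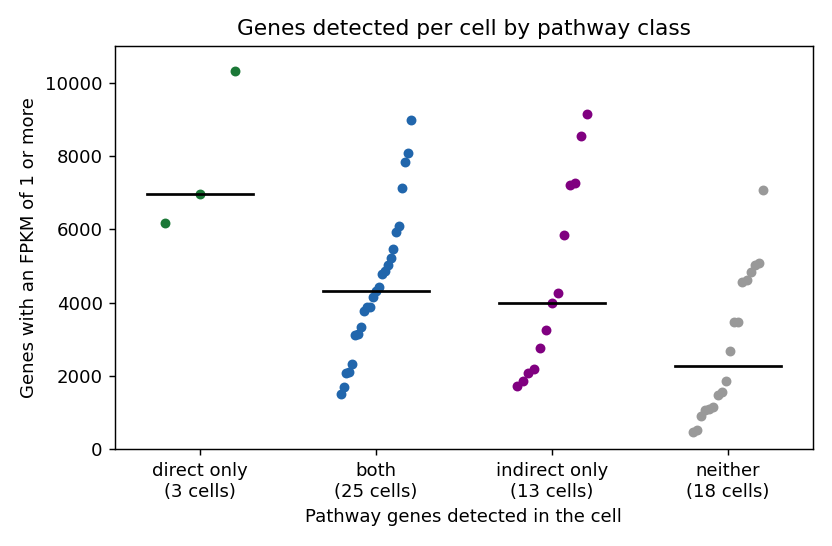
Number of genes with an FPKM of 1 or more in each cell (points) and the median (line), by the pathway genes detected. Cells with neither pathway have the lowest median, 2266.5 genes, but range up to 7075.

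Levels showed which pathway led in a cell. The mean log2(FPKM + 1) of the direct genes minus that of the indirect genes was above 0 in 19 cells, below 0 in 23 and exactly 0 in 17, where all 7 genes were listed at 0. The median difference over the 59 cells was 0 (quartiles -1.08 and 0.27, SD 1.61). Over the 41 cells with a gene detected it was -0.39, with a range of -5.48 to 4.99. Differences of 1 or more towards the direct pathway were found in 10 cells and towards the indirect pathway in 17, while 14 cells with a gene detected lay between. This lean rested on Penk. With Penk left out of the indirect mean the difference was above 0 in 26 cells and below 0 in 8 (quartiles 0 and 1.56). Different genes are averaged here, so the sign says which mean was higher and not how much RNA of a cell type was present.

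Cells 58 and 43 marked the extremes. In cell 58 (difference 4.99) the direct genes stood at 162 (Drd1), 217 (Tac1) and 201 FPKM (Pdyn), and the indirect genes at 16.8 (Drd2), 3.23 (Adora2a), 17.1 (Penk) and 0 FPKM (Gpr6). Cell 43 (difference -5.48) was the reverse, with Penk at 4145, Adora2a at 186, Drd2 at 17.1 and Gpr6 at 7.46 FPKM against 11.7 FPKM of Tac1 and no Drd1 or Pdyn. Cell 49 lay near the middle at 0.25, with 14.3 FPKM of Drd1, 49.6 of Pdyn, 38.0 of Adora2a and 300.3 of Penk. A cell could thus hold genes of both pathways with one set well above the other, or with neither clearly ahead.

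The difference was above 0 in all 11 Drd1 cells and below 0 in all 4 cells with Drd2 and no Drd1. The receptor genes that define these cells are part of that difference, so the signs are partly fixed. With both dopamine receptor genes left out, it was above 0 in 7 of the 10 cells with Drd1 and no Drd2 (-1.13 to 4.34) and in 2 of the 4 with Drd2 and no Drd1 (-5.72 to 0.88). The values of the 2 sets of cells overlapped.

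**Figure D5:**
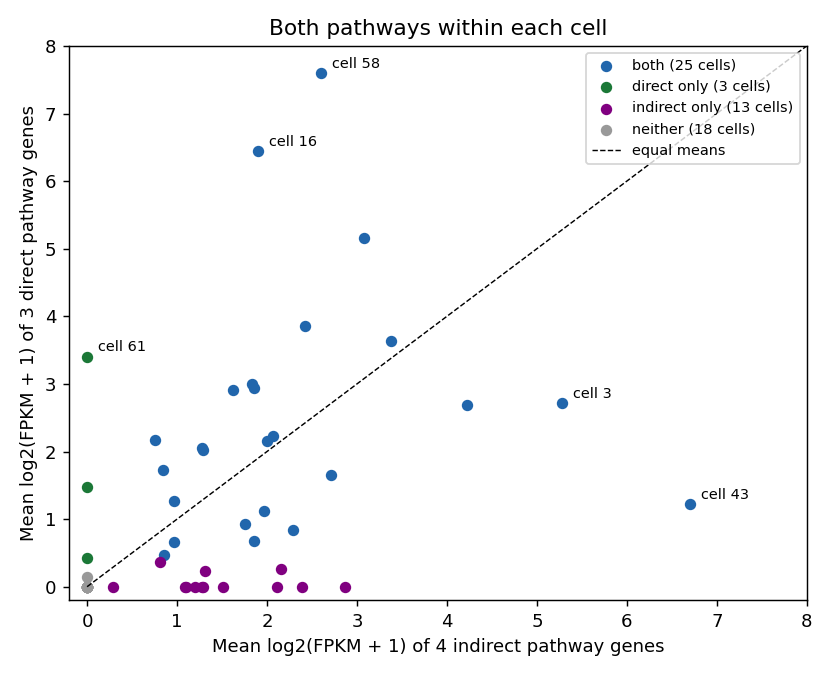
Mean log2(FPKM + 1) of the 3 direct genes against that of the 4 indirect genes, 1 point per cell, coloured by the genes detected, with the line of equal means. Cells 58 and 16 lie far above the line and cell 43 far below, while many cells with both pathways lie near it.

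Direct and indirect levels were correlated over the cells, less so once cells with neither were left out. Spearman's rho between the mean levels was 0.584 over 59 cells, which share 1 group and differ in depth, and 0.304 over the 41 cells with a gene detected. It was 0.392 in the 30 cells at or above the median number of genes and 0.771 in the 29 below it. With the number of detected genes held constant by ranks it was 0.550. It was 0.429 without Penk and 0.420 without Tac1. Among the 11 cells with both Drd1 and Penk the levels of the 2 genes had a rho of -0.245, and among the 21 with both Tac1 and Penk -0.016. These are descriptions of 1 set of cells.

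Among peptide precursor genes Penk led in most cells. At least 1 of Tac1, Pdyn and Penk was detected in 39 cells, 1 of them in 13, 2 in 15 and all 3 in 11. Penk had the highest FPKM of the 3 in 29 of the 39 cells, Tac1 in 6 and Pdyn in 4. It led in 6 of the 11 Drd1 cells as well, with Tac1 ahead in 4 and Pdyn in 1. In the 5 Drd2 cells Penk led in 3 and Tac1 in 2. A peptide gene without any of the 4 receptor genes was found in 22 cells.

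Genes that cut and finish such precursors were unevenly detected. Cpe (a carboxypeptidase) was found in 52 cells and in all 39 cells with a peptide gene, and Scg5 (a helper of the convertase made from Pcsk2) in 44 cells. Pcsk2 was detected in 33 cells, 26 of them among the 39, whereas Pcsk1, the other main prohormone convertase gene, was detected in 2, both among the 39. Receptors for the peptides were rare. Tacr1 (the substance P receptor gene) was detected in 5 cells, Oprk1 (dynorphin receptor) in 4 and Oprd1 (enkephalin receptor) in 1, while Oprm1 was not analysed here.

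Shared genes of striatal projection neurons were found with the receptor genes to unequal degrees. Ppp1r1b was detected in 42 cells, among them all 11 with Drd1, all 5 with Drd2, all 12 with Adora2a and all 4 with Gpr6. Of the 17 cells without Ppp1r1b, 5 had Penk, 2 Pdyn and 1 Tac1, and 0 had any of the 4 receptor genes (upper limit 19.5% for each). Pde1b and Pde10a (phosphodiesterases), Gnal (a G protein subunit) and Arpp21 (a cyclic AMP-regulated phosphoprotein) were also found in all 11 Drd1 cells, and in 35, 32, 41 and 45 of all 59 cells. Other genes of the list were in fewer Drd1 cells, with Gng7 in 7, Adcy5 and Rarb in 4 each and Rasgrp2 in 3. Of the 5 Drd2 cells, Pde10a, Rgs9, Gng7 and Rarb were in 3 each and Rasgrp2 in 2. Pde1b, Adcy5, Gnal, Rasd2, Arpp21, Bcl11b and Meis2 were in all 5, as Ppp1r1b was. The general neuronal genes Snap25, Syt1, Uchl1, Meg3 and Eno2 were in all 11 Drd1 cells too. A median of 81.3% of the 16 shared genes was detected in cells with both pathways (from 25.0% to the whole list), 56.3% with indirect genes alone (6.25 to 81.3%) and 15.6% with neither (0 to 75%).

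In the 18 cells with Ppp1r1b, Meis2, Bcl11b and Foxp1 together, Tac1 was detected in 16, Penk in 17, Drd1, Pdyn and Adora2a in 8 each, Drd2 in 4 and Gpr6 in 3. Genes of both pathways were found in 15 of these 18 cells (83.3%, interval 58.6 to 96.4%) and in 10 of the other 41 (24.4%, interval 12.4 to 40.3%). Without Penk the counts were 9 of 18 and 2 of 41. Both pathways were thus found more often in these 18 cells than in the other 41. The number of genes detected was not compared between the 18 and the 41 cells, and its part in this difference was not tested.

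Further genes known to be enriched in one pathway ranged widely in detection. Of 6 other direct pathway genes, Sfxn1 was found in 32 cells, Isl1 (a transcription factor also used by cholinergic neurons) in 11, Slc35d3 in 10 and Eya1 in 2. Ebf1 (a transcription factor) was found in 5 cells and Chrm4 (a muscarinic receptor gene) in 3. Of the 11 Drd1 cells, 7 had Sfxn1, 5 Slc35d3, 4 Isl1, 4 Ebf1, 1 Chrm4 and 0 Eya1. Of the 5 Drd2 cells, 4 had Sfxn1, 2 Slc35d3, 2 Isl1, 1 Ebf1, 2 Chrm4 and 0 Eya1. Of 4 other indirect pathway genes measured, Gucy1a3 (a guanylate cyclase subunit) was found in 20 cells, Grik3 (a kainate receptor subunit) in 13, the transcription factor gene Sp9 in 6 and Upb1 in 1. Of the 5 Drd2 cells, 4 had Gucy1a3, 3 Grik3, 0 Sp9 and 0 Upb1. Of the 11 Drd1 cells, 6 had Gucy1a3, 2 Grik3, 2 Sp9 and 1 Upb1. Among related receptor genes, Adora1 was detected in 30 cells, Adora2b in 5, Drd5 in 4 and Drd4 in 1.

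Markers of other neurons were found in the same cells as the pathway genes. Of the 11 Drd1 cells, 9 had Pvalb (parvalbumin), 7 Npy and 6 Sst (somatostatin), interneuron genes that striatal projection neurons are not known for, and all 11 had at least 1 of the 3, as did 30 of the 40 cells with none of the 4 receptor genes. Over all 59 cells Sst was in 34, Pvalb in 30 and Npy in 29. Among the 39 cells with a peptide gene, Sst was in 26, Npy in 23 and Pvalb in 23. In those 40 cells these were in 23, 18 and 18. The rest of the 9 interneuron genes on the list ranged widely. Of the 11 Drd1 cells, Cck was in 11, Calb2 in 6, Nos1 in 2 and Vip, Chat and Slc18a3 in 1 each. Over all 59 cells Cck was in 37, Calb2 in 19, Nos1 in 6, Vip in 5 and Chat and Slc18a3 in 1 each. Slc17a7 (a vesicular glutamate transporter of cortical neurons) was in 5 of the 11 Drd1 cells and 20 of all 59, and Tbr1 (a cortical transcription factor) in 6 and 18. The GABA synthesis genes Gad1 and Gad2 were each in all 11. Among the 50 cells with Gad1, Gad2 or Slc32a1, genes of both pathways were found in 24, and among the 26 with a vesicular glutamate transporter gene in 14.

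Glial markers accompanied the pathway genes too. At least 50% of the oligodendrocyte list was detected in 21 of 25 cells with both pathways, 12 of 13 with indirect genes alone and 11 of 18 with neither. The mean log2(FPKM + 1) of that list ranged over 0.74 to 10.29, 1.71 to 10.15 and 0.71 to 10.70 in these classes, so the ranges nearly coincide. For the microglia list the counts were 17 of 25, 6 of 13 and 7 of 18, with means of 0 to 9.43, 0.25 to 9.66 and 0 to 9.83. For the astrocyte list they were 14 of 25, 4 of 13 and 4 of 18, with means of 0.31 to 7.28, 0.17 to 7.34 and 0 to 4.56. In the same order of classes, the medians of these means were 6.69, 4.94 and 5.96 for the oligodendrocyte list. They were 3.95, 2.25 and 1.18 for the microglia list and 2.02, 1.86 and 0.98 for the astrocyte list. The 3 cells with direct genes alone were left out of these counts. All 10 oligodendrocyte, 12 microglia and 10 astrocyte genes were detected in at least 1 cell of each of these 3 classes. All 5 Drd2 cells and all 4 Gpr6 cells were among the 32 with at least 50% of the microglia list, as were 10 of 12 Adora2a cells and 8 of 11 Drd1 cells. The part of glial RNA or of RNA from neighbouring cells in these overlaps was not tested.

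Neuronal markers were also detected more often where the pathway genes were found. At least 50% of the neuronal list was detected in 23 of 25 cells with both pathways, 3 of 3 with direct genes alone, 11 of 13 with indirect genes alone and 11 of 18 with neither. All 11 Drd1, 24 Tac1, 5 Drd2 and 4 Gpr6 cells were among those 48, and 33 of 36 Penk, 14 of 16 Pdyn and 11 of 12 Adora2a cells. Within the 48 cells genes of both pathways were found in 23 (47.9%, interval 33.3 to 62.8%).

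The genes whose levels followed each pathway gene most closely were ranked by Spearman's rho over the 59 cells, among 8042 genes detected in at least 12 cells. Tac1 was followed by Itpr1 (a calcium release channel, rho 0.799) and Ppp1r1b (0.743), where the median gene had 0.166. Penk was followed by Camk2n1 (an inhibitor of CaM kinase, 0.633), Sepw1 (a selenoprotein, 0.592) and Nsg2 (a neuronal endosome protein, 0.581), with a median of 0.067 over genes. Pdyn was followed by Tmed2 (0.571), Gne (0.555) and Rrn3 (0.544), and Adora2a by Zfp609 (0.546), Lrrc7 (0.534) and Rps6ka3 (0.533). Between the 7 genes themselves, Tac1 ranked 17th for Pdyn, 27th for Penk and 41st for Adora2a, while Adora2a ranked 859th for Penk. In the other direction the ranks for Tac1 were lower, with Penk 114th, Pdyn 138th and Adora2a 217th. Drd1, Drd2 and Gpr6 were detected in too few cells for this ranking.

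Because the receptors of these pathways act through cyclic AMP, the promoters were searched for the cyclic AMP response element, TGACGTCA, and for its shorter core TGACG, on both strands. The full element reads the same on both strands and contains the core on each. Promoter sequences from RefSeq (GRCm38.p6) were matched for 5 of the 7 genes, as 7 windows of 250 bases before a start. Adora2a and Penk had no matched sequence and were not searched. The full element was found for Gpr6, and the core alone for Tac1. Of all 32851 windows in the table, 1.55% hold the full element and 17.8% the core. The Gpr6 stretch lies at chr10:41072331-41072398 on the minus strand, 78 bases before the start at its first capital, and the Tac1 stretches at chr6:7554854-7554878 and chr6:7555008-7555032 on the plus strand, 197 and 43 bases before the start at the first capital. They are shown 5′ to 3′ with the matched letters in capitals, which for Tac1 are the core read on the other strand.
Gpr6: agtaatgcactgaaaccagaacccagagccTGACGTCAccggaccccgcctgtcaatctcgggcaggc
Tac1, farther from the start: cctaaaattgCGTCAtttcgaacac
Tac1, nearer to the start: tctacaggctCGTCAcgcctgagat
The gene start in GENCODE M21, 7554879, lies between the Tac1 stretches. The 2 genes with a match were together in 4 cells, all the Gpr6 cells. The windows of Drd1, Drd2 and Pdyn held neither motif. A match describes letters and does not show binding or use.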

How the data were processed

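The authors deposited 1 table of FPKM with 1 column per cell. The submitters' processing notes name STAR 2.5.3a, featureCounts 1.5.3 and GRCm38; the annotation and strandedness used are not given in these sources. ERCC spike-ins (51) were left out. Depth was estimated from FPKM and GENCODE M21 exon lengths (19366 genes). A median of 73.3% of values up to 20 fragments came out whole within 0.02, so no count model was used, and fragments of Drd1, Drd2, Adora2a and Gpr6, which did not come out whole, are approximate. With 1 group, no test was run.

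The 7 genes and all lists were chosen with earlier results of these data known. Named genes were the 7, the highest, second and lowest of each list described, genes of joint counts and the 3 most alike by rank correlation; further genes named from lists, and single cells, were chosen after their values were seen. The result of 1 gene under this rule is not reported here. Alternatives were other thresholds (FPKM above 0 or of 5, 3 or 10 fragments), cells with 2000 genes or 500000 fragments, rescaling, pseudocounts of 0.1 and 10 in place of 1, and other gene choices. Python 3.11.15, pandas 2.3.3 and scipy 1.17.1 were used, and the code was tested on simulated data.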

Additional observations from a re-analysis of the deposited data

How the results depend on the processing

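Restricting the cells to the 48 with at least 50% of the neuronal list was added after the data had been seen. For 16 results, 135 values were recomputed with 1 choice changed. Of these, 15 moved beyond the interval or SD of the reported value and 120 did not. A change of sign was found in 0, but most of the values are shares of cells, which cannot change sign. Orders could still reverse. Without Penk the order of direct genes alone and indirect genes alone did so, as did that of the pair medians at an FPKM of 5. Over detection thresholds, cell filters and rescaling, the share of cells with both pathways ran from 32.2 to 50.0%, with direct genes alone from 1.69 to 8.47%, with indirect genes alone from 16.9 to 28.8% and with neither from 19.6 to 35.6%. Of 4 gene choices, 3 moved them. Without Tac1 they were 32.2, 3.39, 32.2 and 32.2% in that order, within their intervals. Without Penk they were 18.6, 28.8, 5.08 and 47.5% in the same order. With dopamine receptors only they were 1.69, 16.9, 6.78 and 74.6%, and with at least 2 genes of a class 13.6, 15.3, 6.78 and 64.4%; each of these choices counts fewer genes or asks for more of them by construction. The rank correlation of direct and indirect levels was 0.429 without Penk and 0.420 without Tac1; the cause was not tested. Over its 7 alternatives, which do not include splitting the cells by genes detected, it ran from 0.420 to 0.597. The median difference was 0 under each alternative, which the 17 cells with all genes at 0 largely fix. At an FPKM of 5 Tac1 was found in 27.1% of cells. Of the 12 genes most like Tac1, Pdyn, Adora2a and Penk, 8 were shared without the filter on low genes and 11 with the number of detected genes held constant. Without the filter all 3 for Adora2a were replaced, by Zfp697, Rbm12 and Nlrc4, detected in 1, 6 and 3 cells. Pdyn lost Rrn3, while Tac1 and Penk kept all 3. No paired analysis was possible because there is 1 group.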

Other observations

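Some cells held 1 pathway gene at a high level without its usual partners. In cell 61 Pdyn stood at 274 FPKM on 996 fragments, with Tac1 at 3.28 FPKM and Drd1, Penk and the indirect receptor genes listed at 0, while 75% of the shared projection neuron genes were detected. In cell 21 Adora2a stood at 36.3 FPKM on about 326 fragments with Drd2, Penk and Gpr6 listed at 0. Drd1, Tac1 and Pdyn were below an FPKM of 1 there, at 0.097, 0.100 and 0.354 on about 1, 1 and 3 fragments. That cell had 35.7% of the neuronal list but all 10 oligodendrocyte and all 12 microglia genes. In cell 34 Penk stood at 762 FPKM with 42.9% of the neuronal list and 6.25% of the shared projection neuron genes. Cell 54 had Drd1 at 35.2 FPKM with neither Tac1 nor Pdyn. These cells were picked after their values were seen.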
